A study of Mus musculus with 4 samples.

Results

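The nuclear genes for the mitochondrial respiratory chain and the ATP synthase were followed in B10+ and B10- B cells of the mouse spleen. They were taken from the deposited expression table by symbol: those beginning with Nduf and a, b, c, s or v (complex I), Sdha to Sdhd (complex II), those beginning with Uqcr (complex III), with Cox4 to Cox8 (complex IV) and with Atp5 (complex V, the ATP synthase). The rule found 90 genes among 23699 entries, each symbol at 1 locus, and used no measured value. Complex I holds 42 of them, complex II 4, complex III 8, complex IV 19 and complex V 17. Some of these names do not stand for subunits of the complex their prefix gives. Cox4nb is a synonym of Emc8 and Atp5sl of Dmac2 in RefSeq, the Ndufaf genes encode factors that help assemble complex I, and Ndufa4 is now counted as a subunit of complex IV.

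The study sequenced total RNA, depleted of ribosomal RNA, from splenic B cells of C57BL/6 mice. B10+ cells were sorted as high for Cd1d and positive for Cd5 and for the cytokine Il10, which restrains inflammation. B10- cells were sorted as lacking Il10, Cd5 and Cd1d. Both subsets came from cells kept for 48 h with an antibody to Cd40, a receptor for T cell help, with LPS (a bacterial Toll-like receptor ligand), PMA and ionomycin (which activate protein kinase C and raise calcium) added for the last 5 h, so no unstimulated cells enter any comparison. Each subset has 2 libraries, and the labels say that B10+ and B10- replicate 1 shared a culture, as did B10+ and B10- replicate 2. These are called culture 1 and culture 2. The labels do not say how many mice gave the cells of a culture.

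As a check of the sort, B10+ libraries held 1683 FPKM (culture 1) and 2329 FPKM (culture 2) of Il10, and B10- libraries 9.26 and 9.62 FPKM. FPKM is the number of fragments scaled for transcript length and library size; how many fragments each library held is unknown. The B cell gene Ms4a1, which encodes the surface protein Cd20, had 195 and 66.7 FPKM in B10+ cells and 253 and 65.5 FPKM in B10- cells, and Pax5, a transcription factor of B cell identity, had 20.9 and 41.6 FPKM in B10+ cells and 24.1 and 38.7 FPKM in B10- cells. Summed over 7 listed T cell markers the level was 10.5 and 9.24 FPKM in B10+ cells and 10.5 and 4.55 FPKM in B10- cells, most of it Lck. Cd3g (1.14 and 0.245 FPKM), Cd3e (0.0257 and 0.298 FPKM) and Cd4 (0.168 and 0.101 FPKM) were seen in B10+ cells and listed at 0 in B10- cells. Cd247 had 0.869 and 1.77 FPKM in B10+ cells and 0.224 and 0.896 FPKM in B10- cells, and Cd3d was also higher in B10+ cells in both cultures. Lck and Cd8a had no common direction, and Cd8a was at or under 0.07 FPKM in each library. Other marker lists differed between libraries, though not all markers of a list moved together. Over 4 plasma cell markers the sum was 113 and 87.8 FPKM in B10+ cells and 82.3 and 56.0 FPKM in B10- cells, with Xbp1 at 99.0 and 63.8 FPKM in B10+ cells and 75.1 and 46.6 FPKM in B10- cells. Prdm1, the plasma cell switch factor, had 9.94 and 22.5 FPKM in B10+ cells and 2.27 and 7.96 FPKM in B10- cells. Sdc1, of the same list, did not follow, with 3.90 and 1.58 FPKM in B10+ cells and 4.77 and 1.46 FPKM in B10- cells. Tnfrsf17 did not exceed 0.116 FPKM. The 8 macrophage and monocyte markers summed to 9.07 and 7.77 FPKM in B10+ cells and 8.59 and 5.12 FPKM in B10- cells. Emr1 had 2.58 and 2.55 FPKM in B10+ cells and 0.84 and 0.22 FPKM in B10- cells. Cd68, the highest of them, had no common direction, with 5.72 and 4.38 FPKM in B10+ cells and 7.55 and 3.46 FPKM in B10- cells. The remaining markers of this list did not exceed 0.60 FPKM. Dendritic cell markers summed to 29.1 and 9.79 FPKM in B10+ cells of cultures 1 and 2, and to 41.9 and 6.34 FPKM in B10- cells. Most of this gap was Flt3, with 20.9 and 0.991 FPKM in B10+ cells and 26.7 and 0.632 FPKM in B10- cells. Zbtb46 was about level in B10+ cells (6.07 and 6.36 FPKM) and lower in culture 2 in B10- cells (13.6 and 5.00 FPKM). Itgax was higher in culture 2, with 0.281 and 1.51 FPKM in B10+ cells and 0.196 and 0.411 FPKM in B10- cells. Erythroid markers summed to 29.3 and 44.7 FPKM in B10+ cells and 39.9 and 81.9 FPKM in B10- cells, and NK cell and neutrophil markers to under 1 FPKM in each library. The part of such cells in the results below was not tested. The log2 levels of all entries correlated at 0.965 between the libraries of culture 1 and 0.947 between those of culture 2. The B10+ libraries correlated at 0.840 with each other and the B10- libraries at 0.836, so libraries lay closer by culture than by subset.

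The respiratory chain passes electrons from NADH (complex I) and from succinate (complex II) through coenzyme Q, complex III and cytochrome c to oxygen at complex IV, and pumps protons across the inner mitochondrial membrane on the way. The ATP synthase lets the protons return and makes ATP. Stimulated B cells are known to enlarge their mitochondria and raise respiration, and most subunits are encoded in the nucleus, by the genes described here. In bulk samples, fewer cells of a type and less RNA per cell cannot be told apart.

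Of the 90 genes, 84 reached 1 FPKM in at least 2 libraries and were tested: 41 of complex I, 4 of complex II, 8 of complex III, 14 of complex IV and 17 of complex V. Their median level was 166 and 49.6 FPKM in B10+ cells of cultures 1 and 2, and 130 and 52.5 FPKM in B10- cells. The median member ranked at percentile 93.4 and 82.7 of tested entries in B10+ cells and at 92.1 and 83.7 in B10- cells. The genes thus sat near the top of each library, lower in the order in culture 2 than in culture 1.

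By the mean over the 4 libraries, Atp5b and Atp5a1 of the catalytic core of the ATP synthase were the highest members. Atp5b, the catalytic beta subunit (chromosome 10, 127520363 to 127527444, mm9), had 1445 and 697 FPKM in B10+ cells of cultures 1 and 2, and 1577 and 675 FPKM in B10- cells. Atp5a1, the alpha subunit, had 909 and 374 FPKM in B10+ cells and 851 and 339 FPKM in B10- cells. For both genes, the libraries of culture 2 lay below those of culture 1, and B10+ and B10- values overlapped. Cox4i1, a structural subunit of complex IV (chromosome 8, 123192190 to 123198109), came next among the named genes with 841 and 284 FPKM in B10+ cells and 672 and 289 FPKM in B10- cells.

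For most of the families with tissue forms, the form known from most tissues held nearly all of the signal; the c subunit of the ATP synthase, described further on, is shared between 3 genes. Cox4i1 made up at least 99.7% of the FPKM of the Cox4i1 and Cox4i2 pair in each library, Cox6b1 at least 99.7% with Cox6b2, Cox8a at least 99.2% with Cox8b and Cox8c, and Ndufa4 at least 99.3% with Ndufa4l2, its hypoxia-induced relative. Cox8b, a heart and skeletal muscle form, did not exceed 1.24 FPKM, Cox6b2 did not exceed 0.63 FPKM, Cox4i2, a lung form, did not exceed 0.746 FPKM, and Cox7b2 did not exceed 0.0848 FPKM. Cox8c was listed at 0 in all 4 libraries. These 5 genes and Ndufs5 are the members that were not tested.

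The striated muscle forms of Cox6a and Cox7a were seen in culture 1, where Cox7a1 held the larger share of its pair. Cox7a1 (chromosome 7, 30969190 to 30971049) had 13.2 and 0 FPKM in B10+ cells of cultures 1 and 2, and 26.1 and 0 FPKM in B10- cells. Its share of the Cox7a1 and Cox7a2 pair was 3.20% in B10+ cells and 8.29% in B10- cells of culture 1, with the gene listed at 0 in both libraries of culture 2. Cox6a2 (chromosome 7, 135348949 to 135349880) had 3.99 and 0 FPKM in B10+ cells and 3.94 and 0.0565 FPKM in B10- cells, and its locus shares 69 bp with Itgad. Of the Cox6a1 and Cox6a2 pair, Cox6a2 held 1.36% in B10+ cells and 1.63% in B10- cells of culture 1, so Cox6a1 still held nearly all of the signal. Over 6 listed muscle markers the level summed to 0.30 and 0 FPKM in B10+ cells, and to 0.12 and 0.13 FPKM in B10- cells.

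Ndufs5, an accessory subunit of complex I (chromosome 4), could not be measured from its own entry. The table lists it at about 0.00002 FPKM in each library, while the entry BC002163, which covers the same 5452 bp, had 51.9 and 11.4 FPKM in B10+ cells and 43.0 and 15 FPKM in B10- cells. The signal of the locus is thus assigned to the second entry. In all, 11 members overlap another entry, among them Atp5j with Gabpa (451 bp shared), Atp5f1 with Wdr77 (751 bp) and Ndufb11 with Rbm10 (62 bp). Use of strand is not given in the sources used here, so reads of such shared stretches cannot be told apart.

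**Figure D1:**
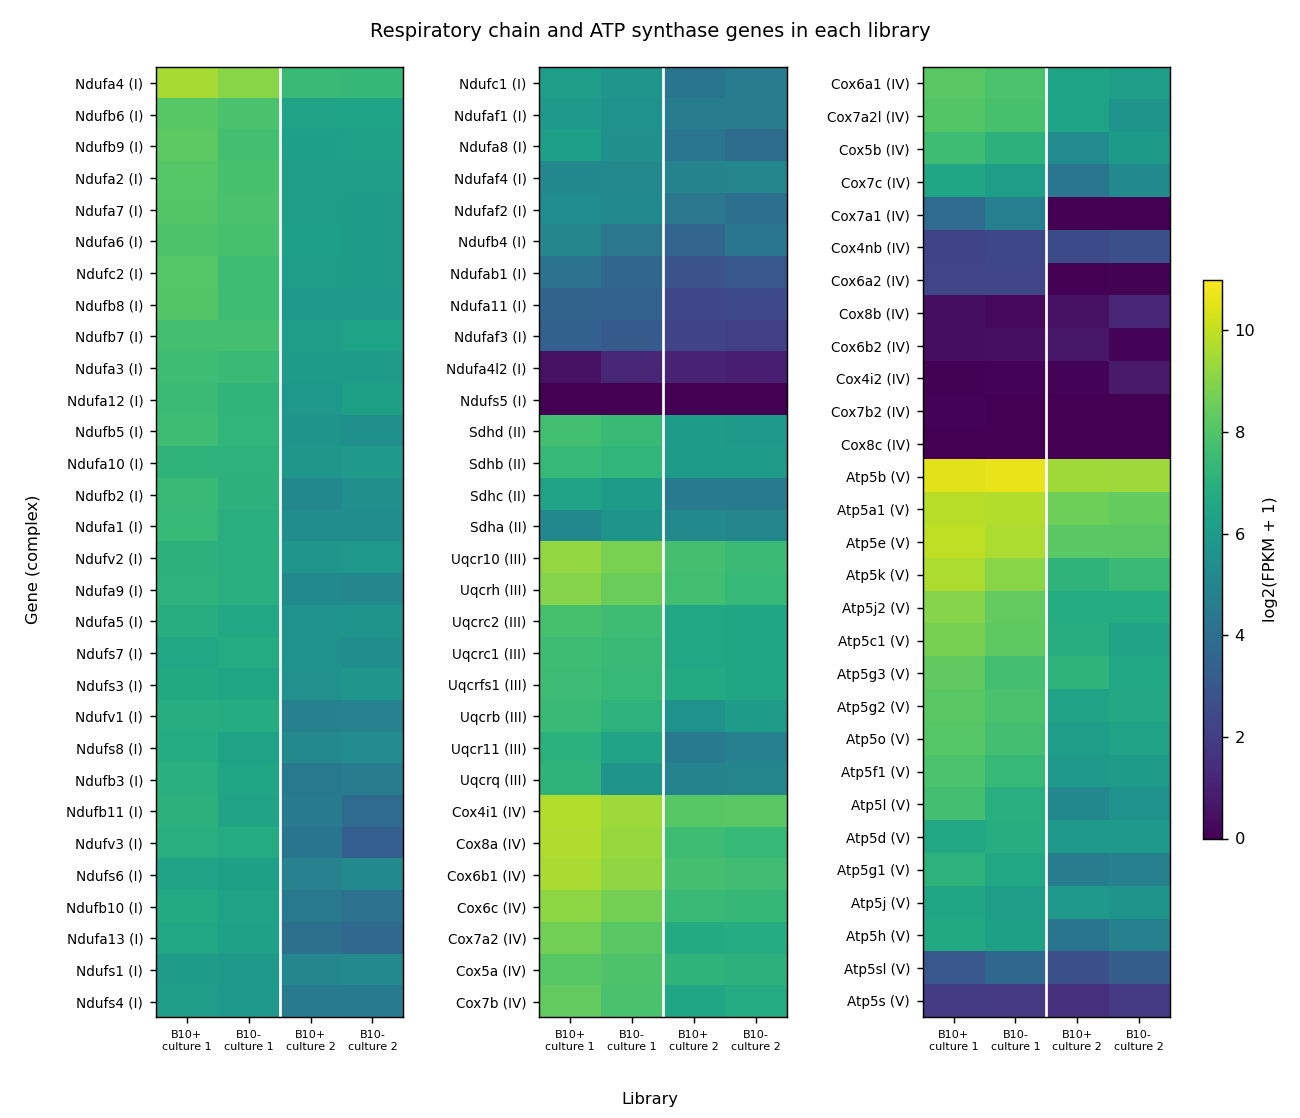
Level of the respiratory chain and ATP synthase genes that are reported here, as log2(FPKM + 1), in the 4 libraries, ordered by complex and then by mean level; columns run B10+ and B10- of culture 1, then B10+ and B10- of culture 2, with a white line between cultures. Within a culture both columns look alike, and most genes are darker in culture 2; Cox8c, at the bottom of complex IV, is at 0 in each library.

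The letters of known binding motifs were looked up in the RefSeq promoters (250 bases before to 50 after the start site, GRCm38.p6), which were found for 74 of the 90 genes. Nrf1 (nuclear respiratory factor), Gabpa of the Ets family and Yy1 are known activators of respiratory chain genes. The palindrome of Nrf1, spelled by the capitals in the first set of sequences below, stood in 6 of the 74 promoters (8.11%), against 1.07% of the 27025 symbols with a promoter. The Yy1 motif, spelled by the capitals in the second set and searched on either strand, stood in 5 (6.76%), against 0.755%, and the Ets motif CCGGAAGT, on either strand, in 5 (6.76%), against 4.31%. At least 1 of them stood in 16 members (21.6%), against 5.93% of symbols. A match is a description of letters and not a bound site. The 6 promoters with the Nrf1 motif are shown because they span complexes I, III, IV and V, each as 30 bases, 5′ to 3′ on the strand of the gene, with the motif in capitals.
Ndufa11 (complex I; chr17:56717692-56717721, plus strand): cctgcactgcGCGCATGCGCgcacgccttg
Ndufaf4 (complex I; chr4:24897960-24897989, plus strand): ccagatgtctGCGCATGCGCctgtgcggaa
Uqcrc1 (complex III; chr9:108936668-108936697, plus strand): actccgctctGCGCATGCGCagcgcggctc
Cox6a1 (complex IV; chr5:115349101-115349130, minus strand): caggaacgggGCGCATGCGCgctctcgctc
Atp5g2 (complex V; chr15:102671070-102671099, minus strand): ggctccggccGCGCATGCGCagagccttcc
Atp5k (complex V; chr5:108434430-108434459, minus strand): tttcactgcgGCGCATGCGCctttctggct

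The 5 matches of the Yy1 motif are shown for their position, since each lay 25 to 36 bases after a start site of its gene, on the strand of the gene. Atp5sl has a second listed start site, from which the same match lies 53 bases upstream. Capitals mark the motif, and bases run 5′ to 3′ on the strand of the gene.
Ndufa9 (chr6:126849095-126849124, minus strand): ttgtgggagAAGATGGCGGCcgccgtccgc
Ndufs4 (chr13:114388045-114388074, minus strand): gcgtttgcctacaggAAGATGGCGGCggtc
Ndufs6 (chr13:73328433-73328462, minus strand): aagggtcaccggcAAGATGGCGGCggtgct
Ndufs7 (chr10:80249464-80249493, plus strand): gccgaggccAAGATGGCGGCgctggcgggt
Atp5sl (chr7:25619431-25619460, plus strand): ttacctggcAAGATGGCGGCgcccagagcg

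Between B10+ and B10- cells, none of the 84 tested members passed the test. The test was limma-trend on log2(FPKM + 1), two-sided, with Benjamini-Hochberg adjustment over 10367 tested entries and a threshold of 0.05. Without a term for the culture it called 0 members higher and 0 lower, and 0% of all entries; at an unadjusted p under 0.05 it held 0 members, against 1.05% of all entries higher and 0.0868% lower in B10+ cells. With the culture as a replicate block it also called 0 members, against 0.858% of all entries (0.781% higher and 0.0772% lower in B10+ cells). In that fit 8 members were higher at an unadjusted p under 0.05, where all entries gave 10.5%, and 1 was lower, where all entries gave 4.66%. The share of members at this level was thus near or under that of all entries. A missed threshold does not show that the subsets are alike.

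The sign of the difference in each culture leaned to B10+ cells in culture 1 and not in culture 2. In culture 1, 74 of 84 members were higher in B10+ cells, against 49.0% of all entries. In culture 2, 39 were higher, against 52.6% of all entries. Higher in both cultures were 34 members (33.4% of all entries), and lower in both were 4 (31.8% of all entries), while 46 had no common direction. The median log2 difference, B10+ minus B10-, was 0.31 in culture 1, -0.02 in culture 2 and 0.15 for the mean of both, against -0.01, 0.02 and 0.00 over all entries. With quantile normalization the medians of the members were 0.13 in culture 1, -0.01 in culture 2 and 0.075 for the mean, so the tilt of culture 1 was smaller by more than 1.5 times. All entries had -0.04, -0.07 and -0.06 in that scaling. With median centring the members had 0.34, -0.14 and 0.10, and all entries 0.02, -0.10 and -0.04. Over the 84 genes, which share their libraries, the differences in culture 1 and in culture 2 correlated at -0.08 (Pearson) and -0.12 (Spearman), with n = 84.

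By complex, the medians lay above 0 in culture 1 and closer to 0 in culture 2. The median log2 difference in culture 1 was 0.29 for complex I, 0.19 for complex II, 0.40 for complex III, 0.34 for complex IV and 0.38 for complex V. In culture 2 it was -0.02 for complex I, 0.08 for complex II, 0.08 for complex III, -0.01 for complex IV and -0.07 for complex V. Higher in both cultures were 16 of 41 members of complex I, 2 of 4 of complex II, 5 of 8 of complex III, 6 of 14 of complex IV and 5 of 17 of complex V. Lower in both were Ndufb7 and Ndufaf4 of complex I, Cox4nb of complex IV and Atp5sl of complex V.

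**Figure D2:**
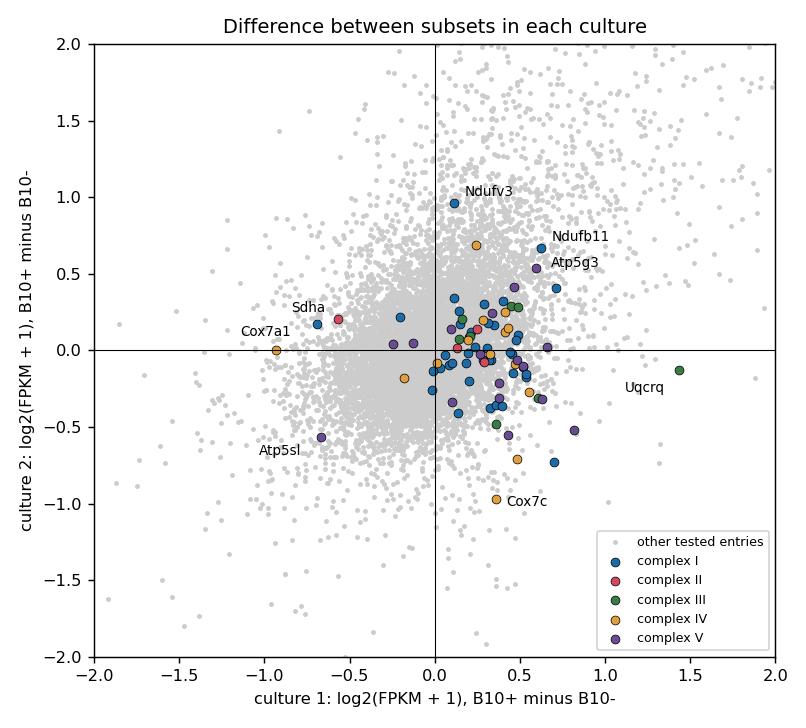
Difference between B10+ and B10- cells, as log2(FPKM + 1), in culture 1 (x axis) and culture 2 (y axis) for the 84 tested members, coloured by complex, and for other tested entries in grey; both axes cover -2 to 2, and entries outside are not drawn. The coloured points lie mostly right of 0 (74 of 84) and on both sides of 0 on the y axis (39 above), with Ndufb11 and Atp5g3 in the upper right and Atp5sl in the lower left.

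Transcript length moved with the tilt of culture 1. Length is that of the longest principal transcript of a gene in the GENCODE annotation, which need not be the transcript measured. Members had a median transcript length of 921 nt, against 2898 nt over all entries. Among other entries the median log2 difference, B10+ minus B10-, in culture 1 was 0.44 for transcripts up to 600 nt, 0.23 above that and up to 1000 nt, 0.08 up to 2000 nt, -0.02 up to 4000 nt and -0.10 above 4000 nt. Members of the same classes had 0.33 (n = 18), 0.42 (n = 28), 0.24 (n = 27), 0.06 (n = 8) and 0.36 (n = 3). Members stood below other entries in the shortest class and above them in the next ones. The part of length in the difference was not tested.

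In complex I, the members closest to the threshold were accessory subunits, which surround the electron-carrying core. Ndufb11 (chromosome X, 20192452 to 20194690), a subunit of the membrane arm, had 132 and 21.8 FPKM in B10+ cells of cultures 1 and 2, and 85.4 and 13.3 FPKM in B10- cells. It was higher in B10+ cells in both cultures, by 0.62 and 0.67 on the log2 scale, while the cultures differed more than the subsets and the groups overlapped. The mean over both cultures was 0.65 ± 0.03 (SD, n = 2), and the blocked limma fit gave an adjusted p of 0.157, the lowest of the members, against 0.999989 or above in the fit without the culture.

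Ndufa8 (chromosome 2, 35891854 to 35904812), a subunit that faces the intermembrane space, had 74.0 and 18.9 FPKM in B10+ cells and 44.8 and 14.0 FPKM in B10- cells. It was higher in B10+ cells in both cultures, with overlapping groups (mean log2 difference 0.56 ± 0.21, SD over 2 cultures; blocked limma fit, adjusted p = 0.242). Ndufb7 (chromosome 8, 86090657 to 86095522), another accessory subunit, had 206 and 68.6 FPKM in B10+ cells and 208 and 82.3 FPKM in B10- cells, a mean log2 difference of -0.14 ± 0.17 (SD over 2 cultures). Ndufaf4 (chromosome 4, 24825230 to 24832148), an assembly factor of complex I, was nearly level across libraries with 34.6 and 28.9 FPKM in B10+ cells and 34.8 and 31.9 FPKM in B10- cells. Ndufa4 (chromosome 6, 11850373 to 11857446) and Ndufb6 (chromosome 4, 40217696 to 40226401) were the highest by prefix. Ndufa4 had 745 and 169 FPKM in B10+ cells and 531 and 158 FPKM in B10- cells, and Ndufb6 had 284 and 79.2 FPKM in B10+ cells and 226 and 82.8 FPKM in B10- cells.

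The 7 core subunits of complex I, which bind the flavin and the iron-sulfur clusters, showed less of the tilt than the 30 accessory ones. Accessory here means each other tested member by prefix apart from the Ndufaf genes, so it includes Ndufa4 and its paralog Ndufa4l2. Core subunits had a median of 0.14 in culture 1 and -0.09 in culture 2, against 0.33 and -0.02 for accessory subunits. The core transcripts are longer, with a median of 1623 nt, against 812 nt for the accessory ones, and the difference between the classes was not tested.

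Complex II, succinate dehydrogenase, also works in the tricarboxylic acid cycle. Its iron-sulfur subunit Sdhb (chromosome 4, 140517186 to 140535107) had 166 and 66.3 FPKM in B10+ cells and 152 and 65.5 FPKM in B10- cells. The membrane anchor Sdhd (chromosome 9, 50404445 to 50411954) had 204 and 67.3 FPKM in B10+ cells and 172 and 61.0 FPKM in B10- cells, and the other anchor Sdhc (chromosome 1, 173059288 to 173080734) had 79.7 and 21.9 FPKM in B10+ cells and 65.0 and 23.1 FPKM in B10- cells. In these 3 genes, both libraries of culture 2 lay below both of culture 1. The flavoprotein Sdha (chromosome 13, 74459703 to 74487688) did not follow them: it had 33.8 and 37.6 FPKM in B10+ cells and 50.7 and 32.5 FPKM in B10- cells, with a log2 difference of -0.57 in culture 1 and 0.21 in culture 2. The blocked limma fit gave an adjusted p of 0.511 for Sdhd, 0.730 for Sdha, 0.772 for Sdhc and 0.805 for Sdhb.

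In complex III, Uqcr10 and Uqcrh, a pair of small subunits, had the highest means, while the other small subunits Uqcrb, Uqcr11 and Uqcrq had the lowest. Uqcr10 (chromosome 11, 4601971 to 4604347) had 597 and 218 FPKM in B10+ cells and 438 and 178 FPKM in B10- cells, and Uqcrh, the hinge protein that docks cytochrome c (chromosome 4, 115739570 to 115747675), had 516 and 200 FPKM in B10+ cells and 367 and 164 FPKM in B10- cells. B10+ cells had the higher value in both cultures, and the groups overlapped. The mean log2 differences were 0.37 ± 0.11 for Uqcr10 and 0.39 ± 0.14 for Uqcrh (SD, n = 2), and the blocked limma fit gave adjusted p values of 0.326 and 0.312. Uqcrq, a further small subunit, is given as it stands farthest out in culture 1 (chosen after its values were seen): it had 140 and 29.2 FPKM in B10+ cells and 51.1 and 32.1 FPKM in B10- cells, so that the subsets differed in culture 1 and were close in culture 2.

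In complex IV, Cox8a (chromosome 19, 7289648 to 7292106) had 832 and 193 FPKM in B10+ cells and 624 and 162 FPKM in B10- cells, and Cox6b1 (chromosome 7, 31401993 to 31411170) had 773 and 215 FPKM in B10+ cells and 581 and 197 FPKM in B10- cells. Cox6a1 (chromosome 5, 115795663 to 115798964) had 289 and 82.4 FPKM in B10+ cells and 238 and 71.6 FPKM in B10- cells. These 3 structural subunits were higher in B10+ cells in both cultures, by means of 0.33 ± 0.12, 0.27 ± 0.21 and 0.24 ± 0.06 on the log2 scale (SD over 2 cultures). Cox7a2l (chromosome 17, 83901257 to 83913673), a member of complex IV by prefix, had 266 and 82.7 FPKM in B10+ cells and 225 and 50.9 FPKM in B10- cells, with the wider gap in culture 2 (mean log2 difference 0.47 ± 0.31, SD over 2 cultures; blocked limma fit, adjusted p = 0.309).

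Cox7a2 (chromosome 9, 79603048 to 79607660) and Cox7b (chromosome X, 103211039 to 103217789), both structural subunits, had no common direction. Cox7a2 had 400 and 103 FPKM in B10+ cells and 289 and 110 FPKM in B10- cells, and Cox7b had 332 and 90.6 FPKM in B10+ cells and 225 and 109 FPKM in B10- cells. Each was higher in B10+ cells of culture 1 and lower in B10+ cells of culture 2. Ndufa4l2 (chromosome 10, 126951995 to 126954210), the paralog of Ndufa4, was low with 0.408 and 1.16 FPKM in B10+ cells and 1.28 and 0.916 FPKM in B10- cells.

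In complex V by prefix, the members nearest to the threshold were Atp5g3 of the proton-carrying ring, Atp5sl and Atp5c1. The other ring genes were far from it, with adjusted p values of 0.642 for Atp5g1 and 0.956 for Atp5g2 in the blocked limma fit. Atp5c1, the gamma subunit of the central stalk (chromosome 2, 9977659 to 10002137), had 429 and 114 FPKM in B10+ cells and 311 and 85.2 FPKM in B10- cells. It was higher in B10+ cells by 0.46 and 0.41 on the log2 scale in cultures 1 and 2, with overlapping groups, and the blocked limma fit gave an adjusted p of 0.258. Atp5sl (chromosome 7, 26404512 to 26410569), known as Dmac2 and as a factor for complex I assembly, went the other way: it had 6.94 and 5.50 FPKM in B10+ cells, against 11.6 and 8.6 FPKM in B10- cells. Both of its B10+ libraries lay below both B10- libraries (mean log2 difference -0.62 ± 0.08, SD over 2 cultures; blocked limma fit, adjusted p = 0.238).

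The c subunit of the proton ring is made from Atp5g1, Atp5g2 and Atp5g3, which encode the same mature protein behind different import signals. Together they had 745 and 245 FPKM in B10+ cells of cultures 1 and 2, and 529 and 222 FPKM in B10- cells. Atp5g3 (chromosome 2, 73746507 to 73749351) had 315 and 140 FPKM in B10+ cells and 208 and 96.3 FPKM in B10- cells, a mean log2 difference of 0.57 ± 0.04 (SD over 2 cultures; blocked limma fit, adjusted p = 0.186). It held 42.2% and 57.2% of the family in B10+ cells and 39.2% and 43.3% in B10- cells. Atp5g2 (chromosome 15, 102493299 to 102501478) held 39.5% and 32.7% in B10+ cells and 42.8% and 44.8% in B10- cells. Atp5g3 was the larger share in B10+ cells and Atp5g2 in B10- cells, in both cultures, with a gap that was wider in culture 2 for B10+ cells. Atp5g1 (chromosome 11, 95934107 to 95937008) held the least, 18.3% and 10.1% in B10+ cells and 18% and 11.9% in B10- cells. How reads shared between the 3 genes were assigned is not given in the sources used here, so the shares are uncertain.

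The difference between the cultures was larger than that between the subsets. Both libraries of culture 2 lay below both of culture 1 for 79 of 84 members, against 51.7% of all entries, and above them for 1, Cox4nb, against 28.7%. The median log2 difference, culture 2 minus culture 1, was -1.75 in B10+ cells and -1.31 in B10- cells, against -0.28 and -0.32 over all entries. Summed over the tested members, B10+ cells had 6407 FPKM in culture 2, against 20329 FPKM in culture 1, and B10- cells had 6264 FPKM in culture 2, against 16318 FPKM in culture 1. With quantile normalization, which gives each library the same distribution, the median of the members was -1.26 in B10+ cells and -1.0 in B10- cells, and that of all entries -0.05 and -0.01.

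By complex, the median log2 difference between the cultures in B10+ cells was -1.64 for complex I, -1.45 for complex II, -1.41 for complex III, -1.85 for complex IV and -1.86 for complex V. In B10- cells it was -1.39, -1.33, -1.06, -1.38 and -1.32 in the same order. Within complex I, accessory subunits had -1.87 in B10+ cells and -1.55 in B10- cells, core subunits -1.30 and -1.04, and the 4 Ndufaf assembly factors -1.08 and -1.02. The order of levels was largely kept: log2 levels of the 84 members correlated across cultures at a Pearson r of 0.929 in B10+ cells and 0.922 in B10- cells, and within cultures 1 and 2 at 0.986 and 0.984.

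**Figure D3:**
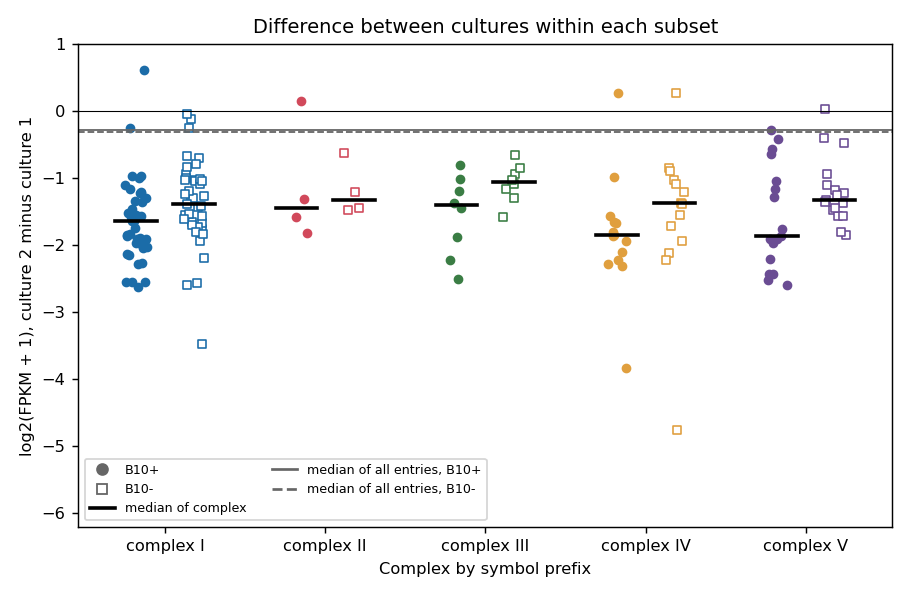
Difference between the cultures, culture 2 minus culture 1, as log2(FPKM + 1), for each tested member by complex, with filled circles for B10+ and open squares for B10- cells; black bars are medians of a complex and grey lines the medians of all tested entries. Nearly all points lie under the grey lines at -0.28 and -0.32, and Cox7a1, at 0 FPKM in culture 2, gives the lowest point of each subset in complex IV.

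The members printed above with the Nrf1 motif took part in this to unequal degree. Atp5k, the e subunit of the ATP synthase, differed between the cultures by -2.52 in B10+ cells and -1.57 in B10- cells, Cox6a1 by -1.80 and -1.72, Atp5g2 by -1.86 and -1.18, Ndufa11 by -1.22 and -1.04, and Uqcrc1, a core protein of complex III, by -1.01 and -0.94. Ndufaf4, which holds the same letters, differed by -0.25 and -0.12. Of the members with the Yy1 motif, Ndufa9 differed by -1.89 and -1.80, Ndufs4 by -1.62 and -1.27, Ndufs6 by -1.54 and -1.0, Ndufs7 by -0.97 and -1.39, and Atp5sl by -0.29 and -0.40. Of those with the Ets motif, Uqcr11 differed by -2.51 and -1.59, Atp5h by -2.43 and -1.45, Cox8a by -2.10 and -1.94, Uqcrh by -1.37 and -1.16, and Ndufs3 by -1.10 and -0.70. Genes with the same letters thus had unlike differences between the cultures.

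Transcript length moved with the culture difference as well. Among other entries, the median in B10+ cells was -1.86 for transcripts up to 600 nt, -1.25 above that and up to 1000 nt, -0.79 up to 2000 nt, -0.32 up to 4000 nt and 0.28 above 4000 nt. Members had -1.87, -1.89, -1.62, -1.12 and -2.28 in the same classes, so they matched other entries in the shortest class and lay below them in the longer ones. In B10- cells, members had -1.51, -1.39, -1.09, -0.73 and -1.56, against -1.27, -1.02, -0.72, -0.36 and 0.14 for other entries. The longest class holds 3 members, Ndufb2, Atp5g1 and Cox4nb, by annotated length. Atp5g1 was given 4715 nt, more than its deposited locus spans (95934107 to 95937008), so the values of members in that class carry little weight. Across genes, length and the culture difference correlated at a Spearman rho of 0.467 in B10+ cells and 0.389 in B10- cells over 9799 entries with a known length, and at 0.359 and 0.290 over the 84 members. The part of length in the difference was not tested.

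**Figure D4:**
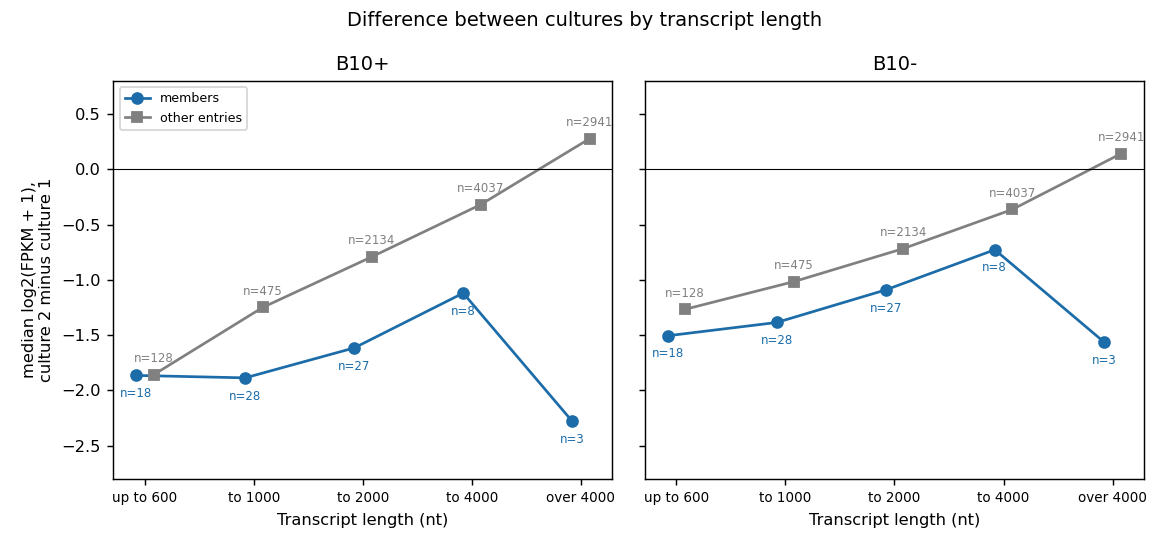
Median difference between the cultures, culture 2 minus culture 1, as log2(FPKM + 1), by class of transcript length, for members (blue circles) and other tested entries (grey squares), in B10+ (left) and B10- cells (right), with the number of genes at each point. The grey line climbs with length, and the blue points lie on it in the shortest class of B10+ cells (-1.87 and -1.86) and under it elsewhere.

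Other genes of the organelle, from 10 lists, were set beside the respiratory chain. None of their tested members passed the threshold with either fit. At an unadjusted p under 0.05, limma without the culture term held 0 of them, and with the block it held 4 genes of the mitochondrial ribosome and 2 of ATP and phosphate export, each higher in B10+ cells, and at most 2 of any other list. Over all entries, 10.5% were higher at this level. Those of the mitochondrial ribosome, which makes the subunits encoded in the organelle, had the most members: of 76 tested, 25 were higher and 15 lower in B10+ cells in both cultures, where all entries gave 33.4% and 31.8%. Their median log2 difference between the subsets stood at 0.22 in culture 1 and at -0.08 in culture 2. Between the cultures it was -1.16 in B10+ cells and -0.83 in B10- cells. Factors of mitochondrial transcription and biogenesis, 15 tested, had the smallest median difference between the cultures, -0.13 in B10+ cells and -0.06 in B10- cells. Single factors went in opposite directions. Both libraries of culture 2 lay below both of culture 1 for 7 of them and above for 5. Pprc1 differed by 2.99 in B10+ cells and 2.68 in B10- cells, and Mterfd3 by -1.60 and -1.66 (both chosen after their values were seen).

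Atpif1 and Slc25a4 had the widest gaps between the subsets among the named genes of these lists. Atpif1, an inhibitor that blocks the ATP synthase from running backwards, had 166 and 22.6 FPKM in B10+ cells of cultures 1 and 2, and 94.7 and 8.09 FPKM in B10- cells (mean log2 difference 1.09 ± 0.41, SD over 2 cultures; blocked limma fit, adjusted p = 0.119). Slc25a4, an exchanger of ADP and ATP, had 269 and 53.5 FPKM in B10+ cells and 221 and 20.02 FPKM in B10- cells (0.83 ± 0.77; blocked limma fit, adjusted p = 0.308). Both were higher in B10+ cells in both cultures and more so in culture 2, and their groups overlapped. Slc25a5, the more abundant exchanger of the same family (chosen after its values were seen), had 639 and 559 FPKM in B10+ cells and 735 and 559 FPKM in B10- cells, lower in B10+ cells of culture 1 and level in culture 2.

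Of the ribosomal proteins, Mrpl18 had 133 and 29.3 FPKM in B10+ cells and 86.0 and 17.9 FPKM in B10- cells, and Mrpl34 had 51.1 and 12.4 FPKM in B10+ cells and 34.9 and 6.2 FPKM in B10- cells, and the blocked limma fit gave adjusted p values of 0.151 and 0.2. Gpx1, a glutathione peroxidase, had 231 and 41.9 FPKM in B10+ cells and 168 and 23.8 FPKM in B10- cells, while Prdx5, a peroxiredoxin, had 90.7 and 52.7 FPKM in B10+ cells and 91.8 and 93.7 FPKM in B10- cells. Gabpb1, the partner of the Ets factor Gabpa, had 34.2 and 68.6 FPKM in B10+ cells and 26.1 and 42.0 FPKM in B10- cells, so it stood higher in culture 2 than in culture 1, opposite to most respiratory chain genes. Peo1, the mitochondrial helicase Twinkle, had 7.61 and 12.9 FPKM in B10+ cells and 12.8 and 16.5 FPKM in B10- cells.

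Among feeders of the chain, the electron transfer flavoprotein subunits Etfa and Etfb differed by 0.53 ± 0.28 and 0.51 ± 0.62 on the log2 scale (SD over 2 cultures), and Coq7, an enzyme of coenzyme Q synthesis, by 0.50 ± 0.07, each higher in B10+ cells in both cultures. Adck3, also of coenzyme Q synthesis, differed by -0.40 ± 0.47, lower in both. The copper chaperone Cox17 differed by 0.33 ± 0.11 and the complex IV factor Cmc1 by -0.32 ± 0.08. Opposite directions thus occurred within the same list, and none of these genes passed the threshold. The paired succinyl-CoA ligase subunits Suclg1 and Suclg2 differed by 0.33 ± 0.27 and -0.30 ± 0.37. In protein import, Timm8b differed by 0.29 ± 0.26 and the chaperone Hspa9 by -0.33 ± 0.01, and of the genes for mitochondrial shape, the fission factor Dnm1l differed by -0.28 ± 0.29 and the fusion factor Opa1 by -0.26 ± 0.01.

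**Figure D5:**
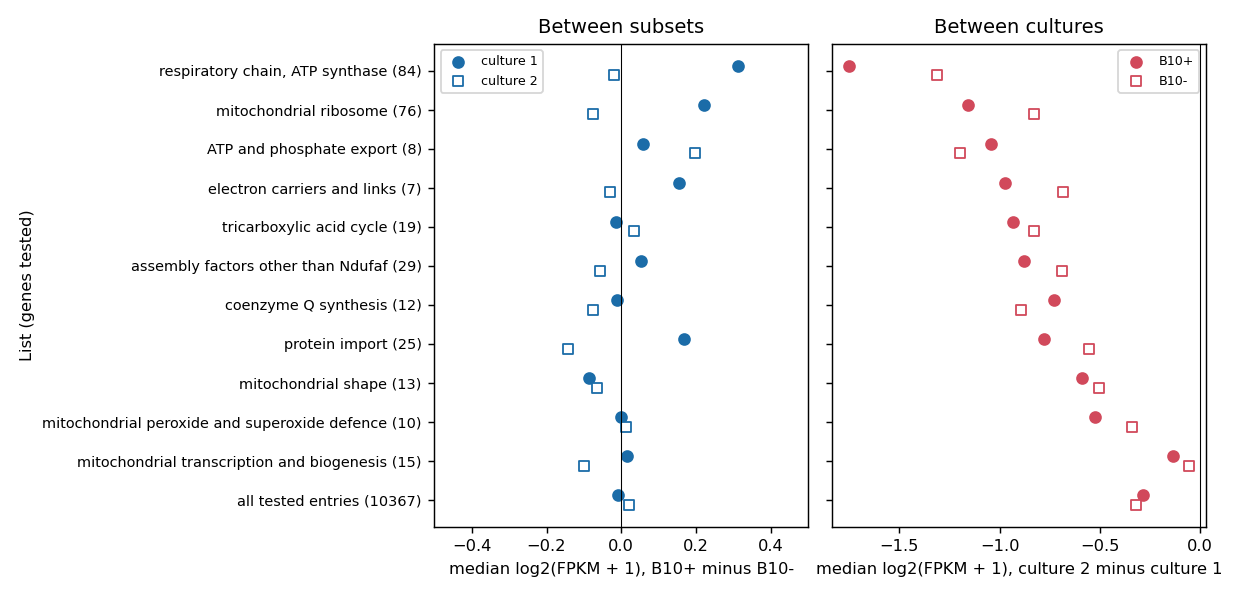
Median log2(FPKM + 1) difference of each list of mitochondrial genes, with the number of tested genes in brackets: left, B10+ minus B10- in culture 1 (filled) and culture 2 (open); right, culture 2 minus culture 1 in B10+ (filled) and B10- cells (open). The respiratory chain and ATP synthase genes, in the top row, have the largest difference in culture 1 (0.31) and between cultures in B10+ cells (-1.75) of the lists drawn.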

How the data were processed

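The authors deposited 1 table of FPKM values with a symbol and locus for each entry, on the build mm9. Per the submitters' processing notes the tools were bcl2fastq 1.8.4, Cufflinks 2.1.1 and TopHat 1.3.2, and DESeq with no version; roles and order are not stated. Their settings, the annotation, strand and how multi-mapping reads were treated: not given in the sources used here. Depth is unknown, so no counting interval is given, and FPKM values are relative within a library. Of the values above 0, those of 211 entries lie under 0.001 FPKM, so low values do not step in whole reads and no counts were recovered. Starts in the table count from 0 (spans equalled RefSeq lengths for 8901 of 20979 symbols read that way, and for 549 otherwise), and 1 was added to the start. The annotation used here is of GRCm38 and served for transcript length, synonyms and promoters, not for loci.

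Entries with at least 1 FPKM in 2 of 4 libraries were tested as log2(FPKM + 1), a scale that understates changes of low genes, with limma 3.58.1 in R 4.3.3 (limma-trend, tested on simulated data). The main model had no culture term. The labels give which libraries share a culture, and deviations from the group means correlated at 0.865 within cultures, so the model with the culture as a replicate block is given beside it. It leaves 1 residual degree of freedom. Counts of directions and medians are descriptions. Whether the cultures came from separate mice is not stated, so p-values measure the spread between these libraries.

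The members and lists were chosen with earlier results of these data known. Genes named are, for each complex, those past the threshold, the 2 highest, up to 2 higher and 2 lower with the widest difference of 1 direction across cultures (mean of 5 FPKM or more), complex II, and genes with paired or tissue forms; and 2 from each other list. Alternatives were other pseudocounts, filters and scalings, sums over loci, the block and leaving out each library. Some items are not reported here.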

Additional observations from a re-analysis of the deposited data

How the results depend on the processing

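No setting called a member: the count was 0 higher and 0 lower with each pseudocount, filter and scaling, with the replicate block, and without each library. The smallest limma adjusted p of a member with the block was 0.157, and 0.143 with quantile normalization added, chosen after seeing the data like the block with a pseudocount of 0.1 (0.170) or with no filter (0.197). Over all entries the fit without the culture called 0, and 1 lower with a pseudocount of 0.1 or median centring; the block called 81 higher and 8 lower, 143 and 14 with quantile normalization, 53 and 7 with a pseudocount of 0.1, and 40 and 5 with no filter. Without a library, 1 to 130 entries were called higher and 3 to 14 lower. Members higher in both cultures numbered 25 with quantile normalization and 24 with median centring, in place of 34. All entries gave 26.0% and 28.3% in these scalings, so the share of members lay closer to that of all entries. Those lower in both numbered 7 and 5, in place of 4, where all entries gave 39.6% and 36.6%. The median difference of the members ranged from -0.70 to 1.02 when a library was left out, which leaves 1 culture unequally represented, so each such value holds part of the difference between cultures. For the same reason the log2 difference of 28 named members changed sign without a library. Their lowest and highest values without a library were: Ndufa4 -0.77 to 1.36, Ndufb6 -0.78 to 1.05, Ndufb11 -0.65 to 1.94, Ndufa8 -0.40 to 1.51, Ndufb7 -0.92 to 0.65, Ndufaf4 -0.20 to 0.053, Sdhd -0.60 to 0.99, Sdhb -0.58 to 0.73, Uqcr10 -0.35 to 1.09, Uqcrh -0.29 to 1.07, Cox4i1 -0.63 to 0.93, Cox8a -0.72 to 1.38, Cox7a2l -0.59 to 1.53, Atp5b -0.65 to 0.57, Atp5a1 -0.54 to 0.78, Atp5g3 -0.016 to 1.15, Atp5c1 -0.51 to 1.39, Sdha -0.50 to 0.13, Sdhc -0.80 to 1.02, Cox6a1 -0.66 to 1.14, Cox6a2 -1.19 to 1.13, Cox6b1 -0.66 to 1.19, Cox7a1 -2.85 to 1.91, Cox7a2 -0.78 to 1.16, Cox7b -0.79 to 1.07, Ndufa4l2 -0.57 to 0.048, Atp5g1 -1.0 to 1.42, Atp5g2 -0.90 to 0.96. With quantile normalization, with or without the replicate block, Cox4i1 was at -0.047, Atp5a1 at -0.031 and Atp5g2 at -0.053, and with median centring Atp5g2 was at -0.015, each with the sign turned. Other settings turned no sign of a named member. With 2 cultures and unknown depth, the least change that could be called is not known, and levels under about 1 FPKM carry little weight.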
